A study of Homo sapiens with 12 samples.

Results

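Cyclophilins are the proteins that bind cyclosporine A, and 10 of their genes (PPIA, PPIB, PPIC, PPID, PPIE, PPIF, PPIG, PPIH, PPIL1 and NKTR) were followed in HK-2 cells, an immortalised line of human kidney proximal tubule epithelium, exposed to CsA. The genes were chosen by name, with earlier results of these data known, as 10 of 19775 genes with a probe set of their own. For each, the brightest of its probe sets, by the mean of all 12 arrays, was read. All 10 were among the 10508 genes tested, which were those above 4 on the log2 scale on all 3 arrays of any group. CsA is read here as cyclosporine A, and the labels do not give the dose. Affymetrix arrays measured messenger RNA in 4 groups of 3 biological replicates: HK-2 cells given CsA for 48 h, HK-2 cells given the control vehicle for 48 h, HK-2 cells given CsA for 12 h, and HK-2 cells given the control vehicle for 12 h. All groups were the same line, grown in the same medium with epidermal growth factor, hydrocortisone, insulin, transferrin and selenium. The 48 h groups had also spent longer in culture than the 12 h groups, so exposure time and culture time cannot be told apart.

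Cyclophilins are enzymes that turn the bond before a proline in a protein chain between its cis and trans forms, a step that can limit folding. CsA sits in the active site of those it binds, and the complex of CsA with cyclophilin A, the product of PPIA, inhibits the phosphatase calcineurin. The family members work in different places: PPIA and PPID in the cytosol, PPIB and PPIC in the secretory pathway, PPIF in the mitochondrial matrix, and PPIE, PPIG, PPIH, PPIL1 and NKTR mainly in the nucleus.

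The arrays were alike in overall level, with medians between 2.85 and 2.96. Replicates varied more at 48 h, where the median gene had a standard deviation of 0.28 (CsA) and 0.21 (control), than at 12 h, where it was 0.12 for both. The least similar arrays within a group correlated at 0.981 (CsA) and 0.990 (control) at 48 h and at 0.997 for both at 12 h. A CsA array and the control array of its number and time shared much of their deviation from the group means (correlations across genes of 0.54 to 0.78 at 48 h and 0.37 to 0.59 at 12 h), so they are treated below as numbered pairs. The general tubular epithelium list had 6 of 7 genes above 4 (PAX8, KRT8, KRT18, CDH1, CDH2 and EPCAM), whereas of the proximal tubule list only SLC3A1 and PDZK1 of 12 genes with a probe set were above 4, and LRP2, CUBN and SLC34A1 were not. Of the fibroblast and pericyte list 4 of 7 genes were above 4 (DCN, LUM, COL1A1 and ACTA2), and its summed level overlapped between all groups (9.46 to 11.07 in CsA 48 h, 9.70 to 11.00 in control 48 h, 10.28 to 10.78 in CsA 12 h and 10.22 to 10.81 in control 12 h, log2). Its part in the results was not tested. The podocyte list had 1 of 3 genes above 4 (PODXL) and the endothelium list 1 of 4 (PECAM1). The distal nephron and collecting duct list had 1 of 5 (AQP2), and 0 of 4 leukocyte markers were above 4. In bulk RNA, fewer cells of a type and less RNA per cell cannot be told apart.

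The promoter of PPIB is shown because PPIB was the only cyclophilin called in any fit of a CsA comparison. The window runs from 250 bases before to 50 bases after the gene's start, at chr15:64162973-64163272 of GRCh38.p14 on the minus strand, and is the RefSeq sequence read 5′ to 3′ along the gene. Capitals mark CCAAT and, on either strand, CCACG (read as CGTGG on the strand shown when it lies on the other). These motifs form both ends of the ER stress response element.
PPIB promoter: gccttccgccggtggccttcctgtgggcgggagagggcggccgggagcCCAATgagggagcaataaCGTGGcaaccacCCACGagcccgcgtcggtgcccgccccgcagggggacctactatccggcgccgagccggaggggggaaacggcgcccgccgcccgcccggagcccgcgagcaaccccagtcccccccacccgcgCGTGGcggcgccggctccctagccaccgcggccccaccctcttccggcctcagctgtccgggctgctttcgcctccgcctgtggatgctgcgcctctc
The window held CCAAT once and CCACG 3 times on either strand. CCAAT occurs in 34.6% and CCACG in 38.1% of all 35116 promoters of the same length. The full element (CCAAT and CCACG with 9 bases of any kind between them) was not in the window, and 0.0769% of all promoters hold it. GGGCGG was present 5 times, against its presence in 45.0% of all promoters. Among the 8 cyclophilin promoters in the table (PPIE and PPIG are not listed), CCAAT was in 5, CCACG in 6, GGGCGG in 5, TGACGT in 1, TATAAA in 1 and the full element in 0. TGACGT occurs in 7.98% and TATAAA in 11.5% of all promoters.

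The first question was whether exposure to CsA changed the messenger RNA of its own binding proteins. PPIB averaged 0.48 higher on the log2 scale in CsA cells than in control cells at 12 h and was higher in all 3 pairs, but it did not pass the test in the fit over all 12 arrays. By the probe set used for each gene, no other cyclophilin differed by more than 0.28 on the log2 scale in either CsA comparison. In limma over all 12 arrays, 0 of 10 cyclophilins were called at 48 h and 0 at 12 h, where 0.0% of all tested genes were called at each time. At an unadjusted p under 0.05 the same fit counted 0 cyclophilins at both times, against 2.52% of tested genes at 48 h and 1.31% at 12 h. With the pairs as a block it still called 0 cyclophilins at both times (0.0% of tested genes were called at 48 h and 0.0285% at 12 h), and 0 with trend and robust moderation added (0.0% at 48 h and 0.0761% at 12 h). The unadjusted count with the block was 2 at 48 h (PPIH and PPIL1), where the share of all tested genes was 12.3%, and 1 at 12 h (PPIB), where it was 7.28%. The arrays of CsA and control overlapped for every cyclophilin at both times, whereas 4.49% of tested genes did not overlap at 48 h (2.0% higher and 2.49% lower) and 11.9% at 12 h (5.37% higher and 6.57% lower). Over the 10 genes the median difference between CsA and control was 0.04 at 48 h, with 6 above 0, and 0.01 at 12 h, with 5 above 0. Over all tested genes it was -0.02 at 48 h and -0.01 at 12 h.

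**Figure D1:**
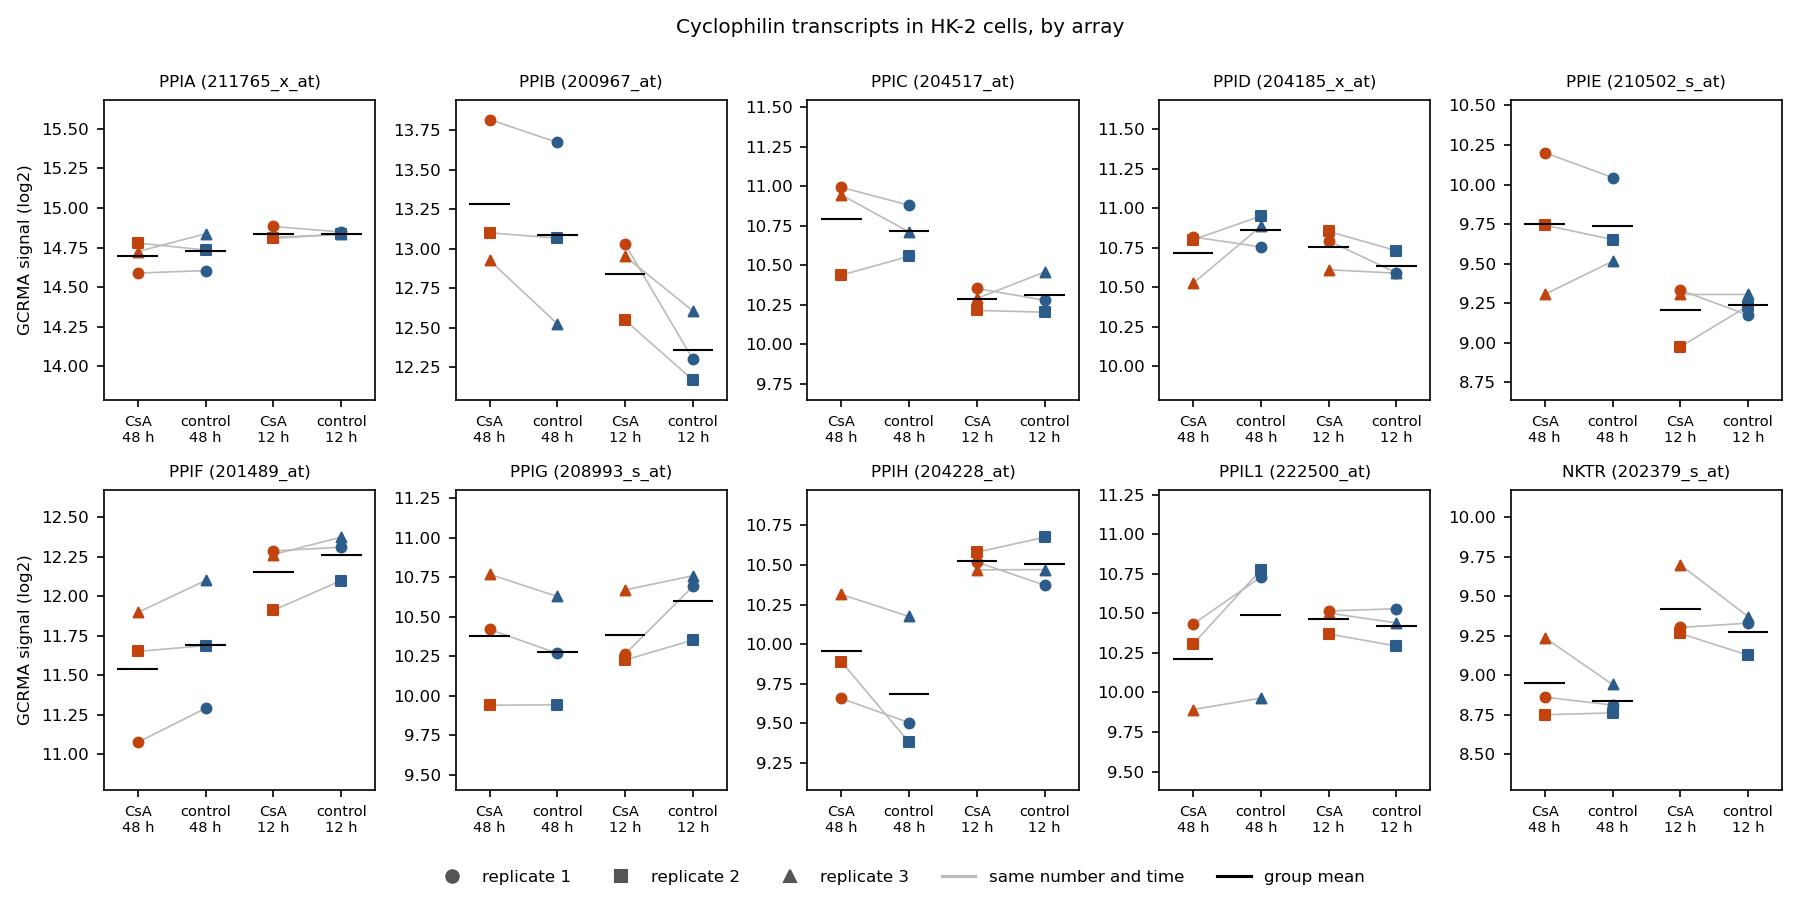
Deposited log2 value of each cyclophilin (y axis, 1 panel a gene, all panels spanning the same range) on the 3 arrays of each group (x axis, CsA left of control, 48 h left of 12 h), with grey lines joining CsA and control arrays of the same number and time and black bars at the group means. The PPIB lines all slope down from CsA to control, at 13.03 in CsA cells and 12.30 in control cells in the first pair at 12 h, while the PPIA points stay between 14.59 and 14.88.

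PPIB encodes cyclophilin B, which resides in the endoplasmic reticulum (ER) and takes part in collagen folding with P3H1 and CRTAP. Its values in replicates 1, 2 and 3 at 48 h were 13.82, 13.10 and 12.93 in CsA cells, against 13.67, 13.07 and 12.52 in control cells. At 12 h they were 13.03, 12.55 and 12.95 in CsA cells, against 12.30, 12.17 and 12.61 in control cells. CsA was the higher array of every pair at both times, yet the lowest CsA array lay below the highest control array at each time, so the groups overlapped. At 48 h the mean was 13.28 ± 0.47 in CsA cells and 13.09 ± 0.57 in control cells, and at 12 h it was 12.84 ± 0.26 in CsA cells and 12.36 ± 0.22 in control cells (SD, n = 3). In this order from high to low, neighbouring means differed by less than the larger of their SDs, except CsA 12 h and control 12 h, which were 0.48 apart. By pair, CsA minus control was 0.14, 0.03 and 0.40 at 48 h, and at 12 h it was 0.73, 0.38 and 0.35.

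The test of PPIB depended on the pairing, on the arrays included and on the moderation together. The block of pairs alone did not call it at 12 h. Nor did the block on the 12 h arrays alone, or with trend and robust moderation over all 12 arrays. In limma over all 12 arrays without the pairs, the 12 h difference was 0.48 (SE 0.30, 95% interval -0.19 to 1.15), with adjusted p = 1.00. The block of pairs left the difference as it was and narrowed its interval to 0.22 to 0.74 (limma adjusted p = 0.419). In a fit on the 12 h arrays alone, with the pairs as a block and trend and robust moderation, which was chosen after the data were seen, limma gave adjusted p = 0.0325 and called PPIB as 1 of 121 genes higher, or 1.15% of those tested, beside 0.314% called lower and 1.47% in either direction. Over all settings tried, its adjusted p at 12 h ranged between 0.0325 and 1.00, and that fit was the only one of 26 that called it. At 48 h the difference was 0.19 (SE 0.30, 95% interval -0.48 to 0.86, limma adjusted p = 0.999). The CsA effect at 48 h minus that at 12 h was -0.29 (95% interval -1.24 to 0.66, limma adjusted p = 1.00). The second probe set of PPIB gave pair differences of 0.13, 0.20 and 0.45 at 48 h and 0.86, 0.33 and 0.53 at 12 h.

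**Figure D2:**
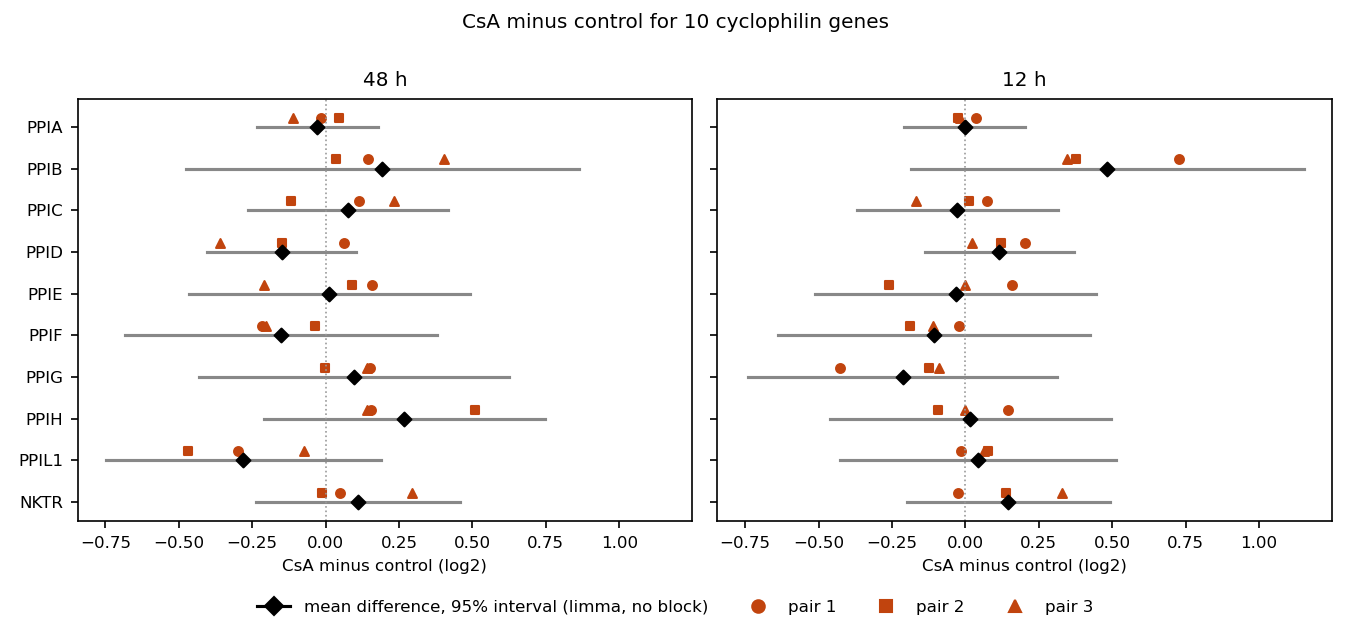
Difference between CsA and control (x axis, log2) for each cyclophilin (y axis) at 48 h and at 12 h, with the mean difference and its 95% interval from limma without the pairs (black diamond, grey line) and the 3 pair differences (orange symbols). All intervals include 0, and PPIB at 12 h has the highest mean difference, 0.48, with pairs at 0.73, 0.38 and 0.35.

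PPIA encodes cyclophilin A, the abundant cytosolic member whose complex with CsA inhibits calcineurin. It read 14.59, 14.78 and 14.72 in CsA cells at 48 h and 14.60, 14.73 and 14.84 in control cells at 48 h. At 12 h it read 14.88, 14.81 and 14.81 in CsA cells and 14.85, 14.83 and 14.83 in control cells. The groups overlapped at both times. By the probe set used, its intervals for CsA minus control were the narrowest of the 10 genes. They ran from -0.23 to 0.18 at 48 h and from -0.21 to 0.20 at 12 h. The values of this probe set lie near the top of the deposited scale. PPID encodes cyclophilin 40, a cytosolic co-chaperone of HSP90. Its values were 10.82, 10.80 and 10.52 in CsA 48 h and 10.76, 10.95 and 10.89 in control 48 h, and 10.79, 10.85 and 10.61 in CsA 12 h and 10.59, 10.73 and 10.59 in control 12 h. The 12 h pairs were all higher in CsA cells, by 0.20, 0.12 and 0.02, whereas the 48 h pairs differed by 0.06, -0.15 and -0.36. The difference between both CsA effects on PPID was -0.26 (95% interval -0.62 to 0.09, limma adjusted p = 1.00).

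PPIC encodes cyclophilin C of the secretory pathway. It read 10.99, 10.44 and 10.95 in CsA 48 h and 10.88, 10.56 and 10.71 in control 48 h, and 10.35, 10.22 and 10.29 in CsA 12 h and 10.28, 10.20 and 10.46 in control 12 h. Its pairs had mixed signs at both times, and CsA minus control was 0.08 (95% interval -0.27 to 0.42) at 48 h and -0.03 (-0.37 to 0.31) at 12 h. PPIF encodes cyclophilin D, a regulator of the mitochondrial permeability transition pore. It read 11.08, 11.65 and 11.90 in CsA 48 h and 11.29, 11.69 and 12.10 in control 48 h, and 12.29, 11.91 and 12.26 in CsA 12 h and 12.31, 12.10 and 12.37 in control 12 h. CsA was the lower array of all 6 pairs, by 0.22, 0.04 and 0.20 at 48 h and by 0.02, 0.19 and 0.11 at 12 h. The mean differences were -0.15 (95% interval -0.68 to 0.38) at 48 h and -0.11 (-0.64 to 0.42) at 12 h, and with the pairs as a block limma gave adjusted p = 0.460 at 48 h and 0.843 at 12 h.

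PPIE, PPIH and PPIL1 are cyclophilins of the spliceosome. PPIH, which binds PRPF4 in the tri-snRNP, read 9.66, 9.89 and 10.31 in CsA 48 h and 9.50, 9.38 and 10.17 in control 48 h. It read 10.52, 10.58 and 10.47 in CsA 12 h and 10.37, 10.68 and 10.47 in control 12 h. CsA was the higher array of all 3 pairs at 48 h, by 0.15, 0.51 and 0.14, and the mean difference was 0.27 (95% interval -0.21 to 0.75, limma adjusted p = 0.999). The blocked interval at 48 h was 0.03 to 0.50 (limma adjusted p = 0.378).

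PPIL1, which binds SNW1, read 10.43, 10.31 and 9.89 in CsA 48 h and 10.73, 10.77 and 9.96 in control 48 h. It read 10.52, 10.37 and 10.50 in CsA 12 h and 10.53, 10.29 and 10.44 in control 12 h. CsA was the lower array of all 3 pairs at 48 h, by 0.30, 0.47 and 0.07, and the mean difference was -0.28 (95% interval -0.75 to 0.19, limma adjusted p = 0.999). The blocked interval at 48 h was -0.50 to -0.06 (limma adjusted p = 0.368), and that block gave adjusted p = 0.542 for the difference between the CsA effects at 48 h and 12 h. PPIE, which carries an RNA recognition motif, read 10.20, 9.74 and 9.31 in CsA 48 h and 10.04, 9.65 and 9.51 in control 48 h, and 9.33, 8.97 and 9.31 in CsA 12 h and 9.17, 9.23 and 9.31 in control 12 h. Its pairs had mixed signs at 48 h and at 12 h, and its mean differences were 0.01 (95% interval -0.47 to 0.49) at 48 h and -0.03 (-0.51 to 0.44) at 12 h.

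PPIG and NKTR are large nuclear cyclophilins with tails rich in arginine and serine. PPIG read 10.42, 9.94 and 10.77 in CsA 48 h and 10.27, 9.94 and 10.63 in control 48 h, and 10.26, 10.23 and 10.67 in CsA 12 h and 10.69, 10.35 and 10.76 in control 12 h. It was lower in CsA cells in all 3 pairs at 12 h, by 0.43, 0.13 and 0.09, with a mean difference of -0.21 (95% interval -0.74 to 0.31), and its 48 h difference was 0.10 (-0.43 to 0.62). NKTR read 8.86, 8.75 and 9.24 in CsA 48 h and 8.81, 8.76 and 8.94 in control 48 h, and 9.30, 9.26 and 9.70 in CsA 12 h and 9.33, 9.13 and 9.37 in control 12 h. Of the NKTR pairs the third had the widest difference at both times, 0.30 at 48 h and 0.33 at 12 h, and the mean differences were 0.11 (95% interval -0.24 to 0.46) at 48 h and 0.15 (-0.20 to 0.49) at 12 h.

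All 3 pairs differed in the same direction for 4 of 10 cyclophilins at 48 h (PPIB and PPIH higher, PPIF and PPIL1 lower), where 29.5% of all tested genes did so (13.4% higher and 16.2% lower). At 12 h they did for 4 of 10 (PPIB and PPID higher, PPIF and PPIG lower), where the share of all tested genes was 41.3% (18.9% higher and 22.5% lower). The difference between the pairs was often wider than the difference within them. At 48 h the mean of a pair ranged over more than the largest CsA minus control difference for 9 of 10 cyclophilins, PPID being the exception, and at 12 h for 5 of 10. The 48 h pair means of PPIB were 13.74, 13.08 and 12.73, and those of PPIF were 11.18, 11.67 and 12.00. The first pair at 48 h thus had the highest PPIB and the lowest PPIF. For the CsA effect at 48 h minus that at 12 h, limma called 0 of 10 cyclophilins, where 0.0% of tested genes were called, and 0 also at an unadjusted p under 0.05, which 1.54% of tested genes reached. The block raised that unadjusted count to 2 (PPIG and PPIL1), against 9.15% of tested genes, and called 0 cyclophilins, also with trend and robust moderation, which called 0.019% of tested genes.

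The second question was how the cyclophilins differed between 48 h and 12 h. PPIH fell in control cells, to 9.69 ± 0.43 at 48 h against 10.51 ± 0.15 at 12 h (SD, n = 3), a difference of -0.82 (SE 0.22, 95% interval -1.30 to -0.34, fold 0.566, limma adjusted p = 0.0213). It was the only cyclophilin called in the fit without the pairs. In control cells 1 of 10 was called (0 higher and 1 lower), where 26.2% of tested genes were called, 12.5% higher and 13.7% lower. Under CsA 0 of 10 were called, where 14.4% of tested genes were called, 6.77% higher and 7.58% lower. At an unadjusted p under 0.05, limma counted 5 cyclophilins under CsA (PPIC, PPIE, PPIF, PPIH and NKTR), against 33.2% of all tested genes, and 6 in control cells (those 5 and PPIB), against 41.8%.

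The call of PPIH in control cells was made in 16 of 21 settings, with adjusted p between 0.0056 and 0.0786. It was lost without the first or the second control array at 48 h (limma adjusted p = 0.0761 and 0.0786), without the second or the third control array at 12 h (0.0740 and 0.0599), and without the filter on low values (0.0508). Under CsA, PPIH averaged 9.95 ± 0.33 at 48 h and 10.52 ± 0.06 at 12 h (SD, n = 3), a difference of -0.57 (95% interval -1.05 to -0.09, limma adjusted p = 0.0987). The third array lay nearest to the 12 h values in both 48 h groups, at 10.31 in CsA cells and 10.17 in control cells.

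PPIF averaged 11.54 ± 0.42 in CsA 48 h and 12.15 ± 0.21 in CsA 12 h, and 11.69 ± 0.40 in control 48 h and 12.26 ± 0.14 in control 12 h (SD, n = 3). The differences were -0.61 (limma adjusted p = 0.107) under CsA and -0.57 (adjusted p = 0.100) in control cells, and the arrays of the times overlapped only in control cells. NKTR was lower at 48 h by 0.47 under CsA (limma adjusted p = 0.0674) and by 0.44 in control cells (adjusted p = 0.0619), and its 48 h arrays lay below its 12 h arrays in both. PPIA was lower at 48 h by 0.14 under CsA (95% interval -0.34 to 0.07) and by 0.11 in control cells (-0.32 to 0.09).

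PPIC was higher at 48 h, with no overlap, by 0.51 under CsA (SE 0.15, limma adjusted p = 0.0524) and by 0.40 in control cells (adjusted p = 0.0760). With the pairs as a random block, limma called PPIC under CsA, with adjusted p = 0.0493, as 1 cyclophilin where 15.1% of tested genes were called. In control cells that block called PPIH, where 26.8% of tested genes were called. With trend and robust moderation added it called 1 under CsA (PPIC), where the share was 16.1%, and 3 in control cells (PPIB higher, PPIF and PPIH lower), where it was 28.0%. PPIE was higher at 48 h by 0.55 under CsA (95% interval 0.07 to 1.02, limma adjusted p = 0.109) and by 0.50 in control cells (0.02 to 0.98, adjusted p = 0.107). PPIB was higher at 48 h by 0.44 under CsA (95% interval -0.23 to 1.11, limma adjusted p = 0.332) and by 0.73 in control cells (0.06 to 1.40, adjusted p = 0.0956). The first 48 h arrays of PPIE and PPIB were the highest of their groups under CsA and in control cells, and the third were the lowest. PPIG, PPID and PPIL1 differed between the times by -0.01, -0.04 and -0.25 under CsA and by -0.32, 0.23 and 0.07 in control cells.

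The arrays of 48 h and 12 h did not overlap for 5 of 10 cyclophilins under CsA (PPIC higher, PPIA, PPIF, PPIH and NKTR lower), where 35.0% of tested genes did not overlap (16.0% higher and 18.9% lower). In control cells they did not overlap for 5 of 10 (PPIC, PPID and PPIE higher, PPIH and NKTR lower), where the share was 50.1% (24.9% higher and 25.2% lower). The median difference over the 10 genes was -0.09 under CsA, with 3 above 0, and -0.02 in control cells, with 5 above 0, beside medians of 0.01 in both over all tested genes. Without the third CsA array at 48 h, limma called 4 cyclophilins under CsA (PPIE higher, PPIF, PPIH and NKTR lower) among 3885 of 10508 tested genes. Without the second CsA array at 48 h it called PPIC higher under CsA (0.68, adjusted p = 0.0177) among 784 genes, and without the third control array at 48 h it called PPIH lower under CsA (-0.57, adjusted p = 0.0424) among 1630. In control cells PPIE (0.50) was called higher without the first or the third CsA array at 48 h (adjusted p = 0.0495 and 0.0416), among 3354 and 4039 genes called. PPIC (0.40) was called higher there without the second CsA array at 48 h (adjusted p = 0.0321), among 2579 genes, and NKTR (-0.44) lower without the third (adjusted p = 0.0246), among 4039.

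**Figure D3:**
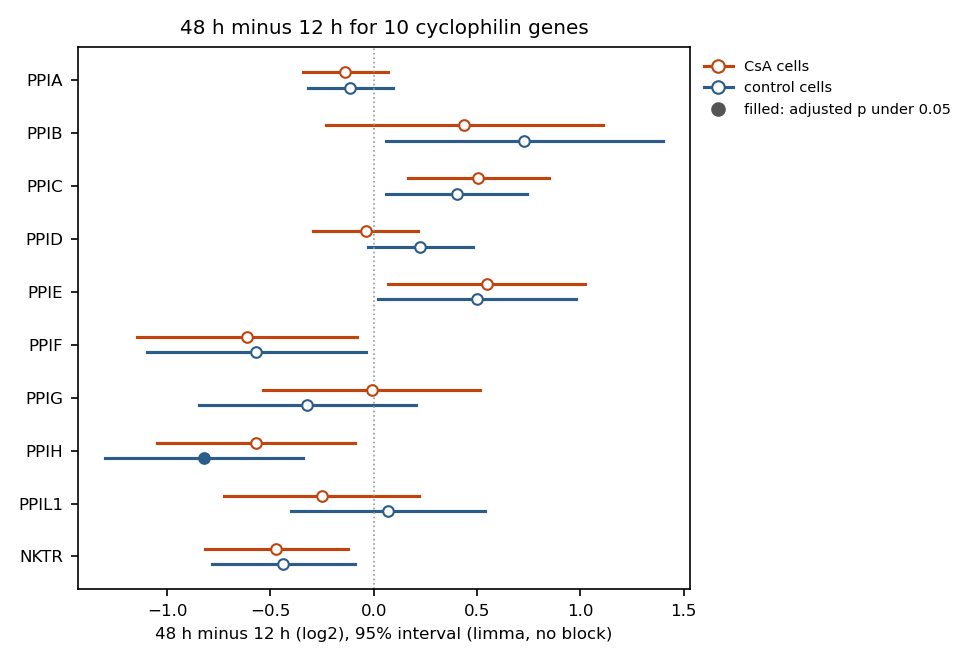
Difference between 48 h and 12 h (x axis, log2) for each cyclophilin (y axis) in CsA cells (orange) and control cells (blue), with 95% intervals from limma without the pairs and a filled point where the adjusted p was under 0.05. PPIH in control cells, at -0.82, is the only filled point, and the CsA and control intervals of each gene overlap.

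Each gene's other probe sets were read as well. Of 29 probe sets that name a single cyclophilin, 20 were above 4 in a group and 9 were not, of which 5 were NKTR probe sets. The second probe set of PPIF differed by -0.15 at 48 h and -0.09 at 12 h between CsA and control, and by -0.71 under CsA and -0.64 in control cells between the times, close to the first. The second probe set of PPIC was higher at 48 h by 0.46 under CsA but by 0.14 in control cells, and the mean of both probe sets gave 0.27 in control cells (limma adjusted p = 0.239). A second probe set of PPIE was higher at 48 h by 0.48 under CsA and 0.45 in control cells. For NKTR, another probe set was 0.30 higher in CsA than in control cells at 48 h (pairs 0.20, 0.04 and 0.66) and 0.09 higher at 12 h. The remaining NKTR probe set above 4 gave 0.09 at 48 h and 0.15 at 12 h. The probe sets of PPIG disagreed: between 48 h and 12 h, one of them gave 0.36 under CsA and 0.33 in control cells, where the brighter one used above gave -0.01 and -0.32. At 12 h that dimmer one was also lower in CsA cells in all pairs (-0.18, -0.07 and -0.17). The remaining PPIG probe sets averaged -0.22 (pairs -0.56, 0.02 and -0.13) and 0.02 (pairs 0.04, 0.08 and -0.04) there. A further 6 probe sets name both PPIA and the pseudogene PPIAP34, so their signal could come from either. Of these, one was lower at 48 h by 0.56 under CsA and by 0.68 in control cells, whereas 4 others were lower by 0.14 to 0.16 under CsA and by 0.11 to 0.14 in control cells. Between CsA and control, the former differed by 0.10 at 48 h (pairs -0.38, 0.24 and 0.43) and by -0.02 at 12 h (pairs -0.10, -0.04 and 0.08).

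PPIA is widely used as a reference gene in PCR, so its spread over all 12 arrays was set beside those of other such genes. Its standard deviation was 0.095, and 4.34% of tested genes had a lower one, against a median of 0.283 over the tested genes. PPIA averaged 14.8 and GAPDH, with a standard deviation of 0.058, averaged 15.1 on a deposited scale whose highest value was 16.03, and the part of this brightness in their small spread was not tested. The dimmer probe set shared by PPIA and PPIAP34, which read 9.48 to 10.97, differed by -0.56 under CsA and -0.68 in control cells between 48 h and 12 h, so the value of 0.095 describes the bright probe set used. TBP (0.121), B2M (0.129) and ACTB (0.136) had somewhat larger standard deviations than PPIA. PPID (0.135) had the next smallest among the cyclophilins, whereas PPIF (0.416), PPIH (0.447) and PPIB (0.502) varied most, with 81.6% of tested genes below PPIB. TFRC and HPRT1, at 0.388 and 0.410, varied more than 7 of the 10 cyclophilins. Between 48 h and 12 h limma called 1 of 10 reference genes lower under CsA (PGK1, -0.54) and 1 lower in control cells (TFRC, -0.65). The shares of all tested genes called lower were 7.58% under CsA and 13.7% in control cells. PPIA was not called. With the pairs as a block, limma also called TFRC lower under CsA (-0.60, adjusted p = 0.0459), among 869 of 10508 tested genes called lower.

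**Figure D4:**
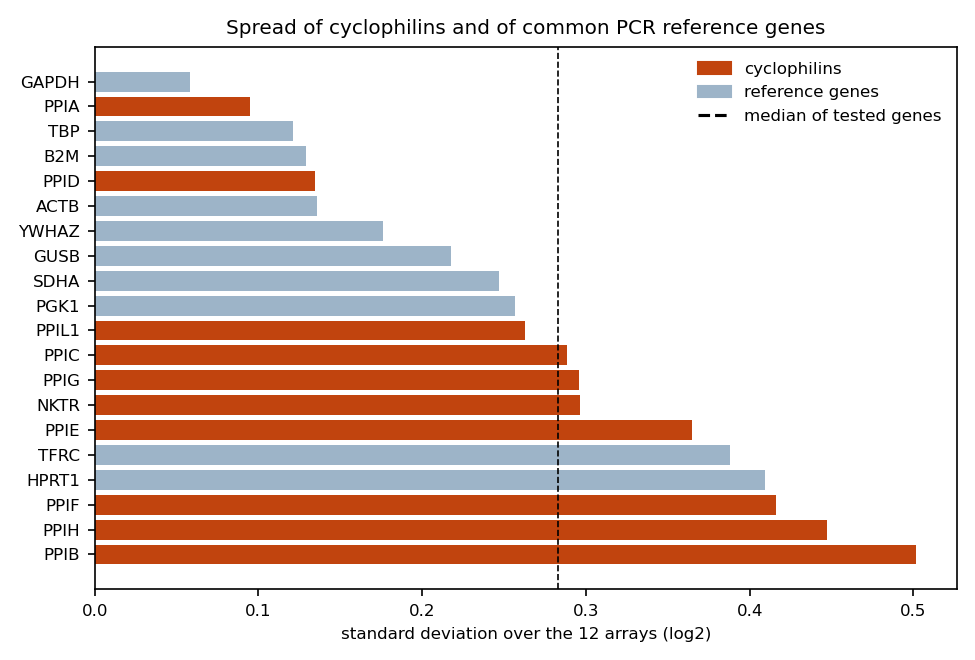
Standard deviation over the 12 arrays (x axis, log2) of each cyclophilin (orange bars) and of 10 common PCR reference genes (grey bars), with the median of all tested genes as a dashed line at 0.283. PPIA, at 0.095, and GAPDH, at 0.058, have the shortest bars and read near the top of the deposited scale, and PPIB, at 0.502, has the longest bar.

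At 12 h most ER partners of PPIB also averaged higher in CsA cells. Of 11 partners tested, 10 were above 0 in CsA cells against control cells, with a median difference of 0.48, and 9 were higher in all 3 pairs, beside a median of -0.01 and 18.9% higher in all 3 pairs over all tested genes. In limma over all 12 arrays 0 of the 11 were called, and 0 at an unadjusted p under 0.05, while with the pairs as a block 9 reached an unadjusted p under 0.05, against 7.28% of all tested genes, and 0 were called. In the fit on the 12 h arrays alone chosen after seeing the data, limma called 8 higher, against 1.15% of all tested genes. HSPA5, or BiP, the main ER chaperone, averaged 14.5 ± 0.25 in CsA cells and 13.6 ± 0.42 in control cells (SD, n = 3 each; difference 0.88, adjusted p = 0.0014 in that limma fit). HSP90B1, the ER form of HSP90, differed by 0.55 (adjusted p = 0.0026), HYOU1 by 0.81 (adjusted p = 0.0054) and SDF2L1 by 1.07 (adjusted p = 0.0012) in the same limma fit. P3H1 and CRTAP, which join PPIB in modifying collagen, differed by 0.05 and -0.03 and were not called.

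At 48 h 4 of the 11 ER partners were above 0 in CsA cells against control cells, with a median of -0.03, and HSPA5 differed by -0.38 (limma adjusted p = 0.999). The CsA effect at 48 h minus that at 12 h had a median of -0.64 over the 11 genes. In limma without the pairs 0 were called and 0 had an unadjusted p under 0.05, which 1.54% of all tested genes reached. With the pairs 7 reached it, against 9.15% of all tested genes. In control cells between 48 h and 12 h, 10 of 11 were above 0 with a median of 1.08, and limma called UGGT1 (0.89, adjusted p = 0.0232) and HSPA5 (1.57, adjusted p = 0.0448) higher, and 5 higher with the pairs as a block, where 12.5% of all tested genes were called higher without it. Under CsA 10 of 11 were above 0 with a median of 0.42, and 0 were called, where 14.4% of all tested genes were. An unadjusted p under 0.05 was reached by 2, against 33.2% of all tested genes. These lists were drawn up with earlier results of these data known, so their direction is a description.

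**Figure D5:**
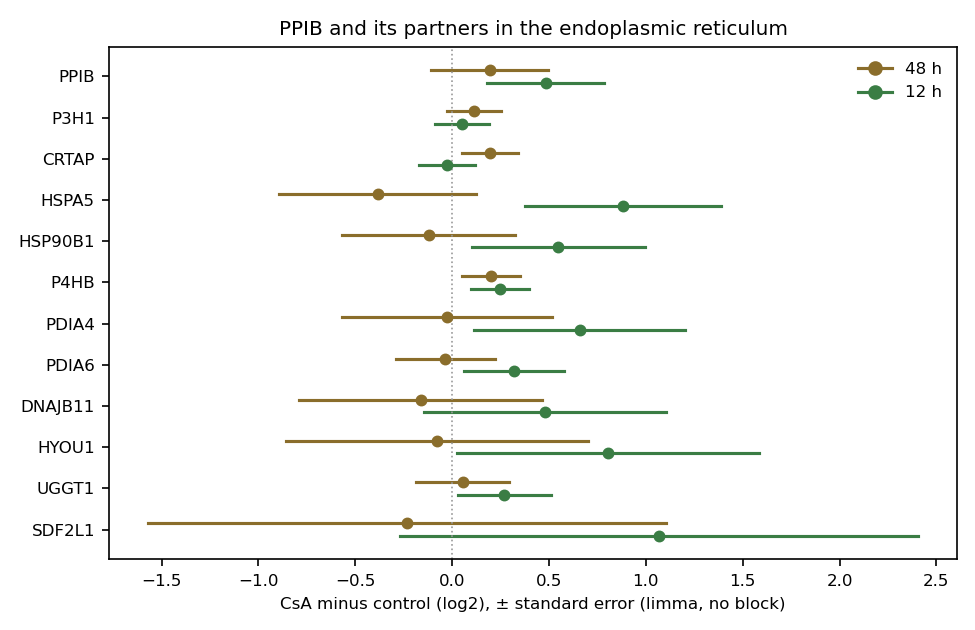
Difference between CsA and control (x axis, log2) of PPIB and its 11 ER partners (y axis) at 48 h (brown) and at 12 h (green), with standard errors from limma without the pairs. At 12 h HSPA5 stands at 0.88 and PPIB at 0.48, whereas at 48 h HSPA5 stands at -0.38 and PPIB at 0.19.

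Most partners of PPID fell to lower levels at 48 h, with and without CsA. HSP90 and its co-chaperones had 5 of 6 genes lower at 48 h under CsA and 6 of 6 lower in control cells by limma, with medians of -0.54 and -0.58, where 7.58% and 13.7% of all tested genes were called lower. With the pairs as a block limma called 5 of 6 in control cells, without FKBP5, where 1470 of 10508 tested genes were called lower. HSP90AA1, the inducible cytosolic HSP90, fell by 0.73 under CsA (limma adjusted p = 0.0059) and by 0.81 in control cells (adjusted p = 0.0022). FKBP4, an immunophilin that binds HSP90 as PPID does, fell by 0.57 under CsA (limma adjusted p = 0.0079) and by 0.91 in control cells (adjusted p = 0.0010). The co-chaperones STIP1 (-0.61 under CsA and -0.56 in control cells) and PTGES3 (-0.51 and -0.61) and the constitutive HSP90AB1 (-0.43 and -0.44) were called lower in both, and FKBP5 (-0.45) in control cells. PPID itself differed by -0.04 under CsA and 0.23 in control cells and was not called.

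Of the 10 splicing partners of PPIE, PPIH and PPIL1, 2 were called lower at 48 h under CsA and 4 in control cells, where 7.58% and 13.7% of all tested genes were. With the pairs as a block 3 were called lower in control cells, where 1470 of 10508 tested genes were. PRPF3, a protein of the same tri-snRNP as PPIH, fell by 0.86 under CsA (limma adjusted p = 0.0051) and by 0.98 in control cells (adjusted p = 0.0013). PRPF4, to which PPIH binds, fell by 0.51 under CsA (limma adjusted p = 0.0288) and by 0.59 in control cells (adjusted p = 0.0110). PRPF31 (-0.61) and PRPF19 (-0.44), both splicing factors, were called lower in control cells, PRPF19 only without the block. Of the 8 mitochondrial partners of PPIF tested, only VDAC1, a channel of the outer membrane, was called, and it was lower by 0.58 under CsA (limma adjusted p = 0.0442) and by 0.59 in control cells (adjusted p = 0.0277). In CsA cells against control cells, limma without the pairs called 0 genes of these 3 lists at either time, and 1 reached an unadjusted p under 0.05 (FKBP4 at 12 h, a difference of -0.27).

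Of the 6 other genes with a cyclophilin domain that were tested, PPIL3, a spliceosome protein, rose at 48 h by 0.52 under CsA (limma adjusted p = 0.0493) and by 0.56 in control cells (adjusted p = 0.0270). The shares of all tested genes called higher were 6.77% under CsA and 12.5% in control cells. Of 14 FK506-binding proteins and parvulins tested, which catalyse the same reaction but do not bind CsA, 2 were lower at 48 h under CsA (FKBP4 and PIN4). In control cells 4 were lower (FKBP4, PIN4, FKBP11 and FKBP5). FKBP4 and FKBP5 are also counted in the list of HSP90 and co-chaperones above. Of all tested genes, 7.58% were called lower under CsA and 13.7% in control cells. The block of pairs called 2 of the 14 lower in control cells, where 1470 of 10508 tested genes were called lower. Calcineurin, the target of the complex of CsA and cyclophilin A, and its relatives gave 9 tested genes, and limma called none of them in CsA cells against control cells, with 1 at an unadjusted p under 0.05. That gene was RCAN3, a calcineurin regulator, which averaged 5.37 in CsA 48 h and 4.23 in control 48 h (difference 1.14, limma adjusted p = 0.999). Its mean in control 48 h lay just above 4, the level of the filter. Between the times, limma called RCAN3 lower at 48 h in control cells (-2.01, adjusted p = 0.0064), where 13.7% of all tested genes were called lower. With the pairs as a block it also called PPP3CB, a catalytic subunit of calcineurin (-0.74, adjusted p = 0.0345), where 26.8% were called in either direction. BSG, a cell surface receptor of secreted cyclophilin A, differed between CsA and control by 0.21 at 48 h and 0.11 at 12 h.

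The genes whose profile over the 12 arrays was most like that of a cyclophilin were found by the root mean square difference after each gene's mean was subtracted. For PPIB they were DNAJC10, SSR3 and OSTC, at 0.128, 0.134 and 0.147, against a median of 0.519 over tested genes. For PPIA they were COX4I1 (0.0526), ACTR3 (0.0527) and ACTB (0.0534), against a median of 0.286. For PPIF the nearest was NUDT1 (0.0837, median 0.461), and for PPIH it was VAMP3 (0.0958, median 0.489). These distances describe 12 arrays that share groups and pairs.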

How the data were processed

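HK-2 messenger RNA was measured on 12 Affymetrix arrays. The authors deposited log2 values (the scale is inferred from their range) from GCRMA, which the tool list of the labels names, per the submitters' processing notes. Which version and options were used is not given in the sources used here. GCRMA subtracts background by probe sequence and normalises arrays by quantiles, so a shift shared by most genes would not be seen. The arrays come with no genome build, and their number limits the precision.

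Of 54675 probe sets, 62 controls were left out, 41091 named 1 gene, 1801 several and 11721 none, per the platform annotation. Per gene, the probe set with the highest mean was used, and 10508 genes above 4 on all 3 arrays of a group were tested. Differences were tested two-sided with limma 3.58.1 in R 4.3.3 (4 group means over all 12 arrays, eBayes without trend), with Benjamini-Hochberg adjustment over all tested genes and a threshold of 0.05. The labels call the replicates biological but do not say what they were, so p-values measure the spread between these samples. In the fit without the pairs, a gene's spread was pooled over both times. Same-numbered CsA and control arrays entered that fit as independent.

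Replicate numbers pair the arrays within a time. This comes from the data, since the deviations of same-numbered CsA and control arrays correlated (0.78, 0.54 and 0.74 at 48 h, then 0.37, 0.53 and 0.59 at 12 h), for every array more closely than with any other number. The pairs were therefore tried as a block, fixed for CsA comparisons and random for time comparisons (consensus correlation 0.61). Other alternatives were trend and robust moderation, other filters (none, or above 6), median centring, other choices of probe set, single times, and leaving out arrays or pairs.

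The cyclophilins and the lists of partners, markers and other genes were chosen with earlier results of these data known. All 10 cyclophilins were named whatever their values, and list genes could be named, up to 6 a list, if called or at an unadjusted p under 0.05. ER partners and reference genes outside that rule were named after their values were seen. The promoter is from RefSeq (GRCh38.p14), and only members called in a CsA fit were to be shown.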

Additional observations from a re-analysis of the deposited data

How the results depend on the processing

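With the pairs as a replicate block, limma called 3 genes in CsA against control at 12 h, 5 with the 12 h arrays alone, 8 with trend and robust moderation, and 154 with both, a combination chosen after seeing the data that called 1 cyclophilin (PPIB). Without the block it called 0, or 1 without the filter on low values. At 48 h every setting called 0 genes. For the difference between the CsA effects, 2 genes were called with the block and trend and robust moderation, and 0 to 6 as arrays or pairs were left out. Under CsA between the times, 1 cyclophilin was called with the replicate block (PPIC), and 1 also with trend and robust moderation, with both, and with the stricter filter. Genes called there were 988 with no filter, and from 432 to 3885 with each array left out, while cyclophilins called ran from 0 to 4. In control cells cyclophilins called were 3 with the replicate block and trend and robust moderation (PPIB, PPIF and PPIH), 0 with no filter, and 0 to 3 with each array left out, along with 1322 to 4039 genes. The block changed no other cyclophilin call. Signs turned in small differences only, apart from PPIG. PPIA in CsA against control at 12 h was 0.0041 with median centring and 0.0021 with the mean of its probe sets, and at 48 h 0.0013 with centring. PPIG at 48 h was -0.013 with the mean and -0.11 with probe sets ending in neither _x_at nor _s_at. Between the times, PPIG with such probe sets was 0.36 under CsA and 0.33 in control cells, and 0.075 with the mean under CsA. NKTR was 0.029 for the difference between the CsA effects with the mean. The cause was not tested.

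With arrays or pairs left out, PPIB in CsA against control kept its sign at 12 h (0.36 to 0.63) but not at 48 h (-0.088 to 0.49, the lowest without the third control array). PPIF ranged over -0.35 to 0.081 at 48 h and -0.19 to 0.015 at 12 h. At 48 h the other ranges that crossed 0 were PPIA -0.088 to 0.028, PPIC -0.025 to 0.25, PPIE -0.21 to 0.24, PPIG -0.10 to 0.31 and NKTR -0.033 to 0.21. At 12 h they were PPIA -0.027 to 0.010, PPIC -0.082 to 0.045, PPIE -0.13 to 0.081, PPIH -0.050 to 0.10 and PPIL1 -0.022 to 0.096. For the difference between the CsA effects they were PPIA -0.085 to 0.031, PPIB -0.57 to 0.0022, PPIE -0.18 to 0.27, PPIF -0.25 to 0.19 and NKTR -0.18 to 0.10. Between the times they were PPID -0.11 to 0.057 and PPIG -0.21 to 0.21 under CsA, and PPIL1 -0.074 to 0.33 in control cells, where PPIH ranged over -1.06 to -0.67. In control cells without the third array at 48 h, PPIB (1.01, limma adjusted p = 0.0294) rose and PPIF (-0.77, adjusted p = 0.0380) fell, among 3189 genes called.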
